A study of Homo sapiens with 17 samples.

Results

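RNA captured from untreated H1437 and PC9 cells was compared row by row across the mitochondrial genome (ChrMT). Both are human lung adenocarcinoma cell lines, and the labels give no treatment for these libraries. J2, an antibody that binds double-stranded RNA (dsRNA), was used to pull RNA out of whole-cell lysates, and the captured RNA was sequenced as long nanopore reads. Of the 17 libraries in the study, 6 were compared, replicates 1, 2, and 3 of each line, and the 2 libraries named replicate 4 served as a check. The members were the 37 gene rows of the deposited annotation and its D-loop row, 38 of 99 annotated rows, chosen by their place in the annotation and not by their values. The labels do not say whether replicates came from separate cultures, so the spread between them may be technical in part. No library of input RNA or of a control antibody was analyzed here. The counts therefore hold capture and RNA level together, and in a cell line a lower count can mean fewer molecules per cell or weaker capture.

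The mitochondrial genome is transcribed from both strands into long precursors. Most genes lie on one strand and few on the other, so RNA from both strands can pair into dsRNA. In the precursors, tRNAs sit between the rRNAs and mRNAs like punctuation marks, and excision of the tRNAs releases their neighbors. ChrMT encodes 2 rRNAs, 13 subunits of the respiratory chain and ATP synthase, and 22 tRNAs, and the D-loop is the noncoding region where replication and transcription start. In the annotation, 28 genes are on the plus strand. The 9 on the minus strand are ND6 and 8 tRNA genes.

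The libraries held between 501188 and 6295486 total reads, of which between 1.89% and 7.45% mapped to ChrMT. In H1437 replicates 1, 2, and 3, 3.03%, 4.77%, and 6.63% mapped. The average that the authors report for H1437 lies above each of these, and the average they report for H23 lies within this range. The cause of this conflict was not tested, and the line names used here rest on the deposited labels. The gene rows held 150335, 17335, and 30905 counts in H1437 replicates 1, 2, and 3 and 7536, 27821, and 13407 in PC9. Levels are given as reads per 1000000 total reads (RPM) and as shares of the gene-row counts of a library. Each gene also has a row by its type (CDS, rRNA, or tRNA) over the same interval, and no gene row held more than that typed row. Reads on the typed row but not on the gene row are called left out of the gene row. Neither the strand setting of the counting nor the strand of a read is given in the sources used here, so a row can hold reads from either strand.

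The profile over the 38 rows went with the replicate number more than with the cell line. In replicate 1 of both lines the rRNA genes made up nearly all gene-row counts and most tRNA gene rows were empty, and in replicate 3 of both lines the tRNA genes came to a large share. Spearman's rho between the counts of same-numbered H1437 and PC9 libraries was 0.97, 0.88, and 0.78 in replicates 1, 2, and 3 over 38 rows. Between libraries of one line it ran between -0.10 and 0.61 in H1437 and between 0.16 and 0.73 in PC9. Between libraries that shared neither it ran between -0.11 and 0.87, the highest being H1437 replicate 2 with PC9 replicate 3, above the same-numbered pair of replicate 3. These are descriptions across rows, which are not independent replicates, and libraries of one number may also share technical features. Over the 34 rows with at least 10 counts in 3 of the 6 libraries, the replicate number accounted for a median of 84.9% of the spread of the log2 shares and the line for 1.79%. The number has 2 degrees of freedom and the line 1. The number took the larger part in 33 of the 34 rows. Of these rows, 19 were tRNA genes, most of them at 0 in replicate 1, where a log2 share needs an offset. For the 12 protein-coding genes, which had counts in each of the 6 libraries, the medians were 72.9% for the number and 4.34% for the line.

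**Figure D1:**
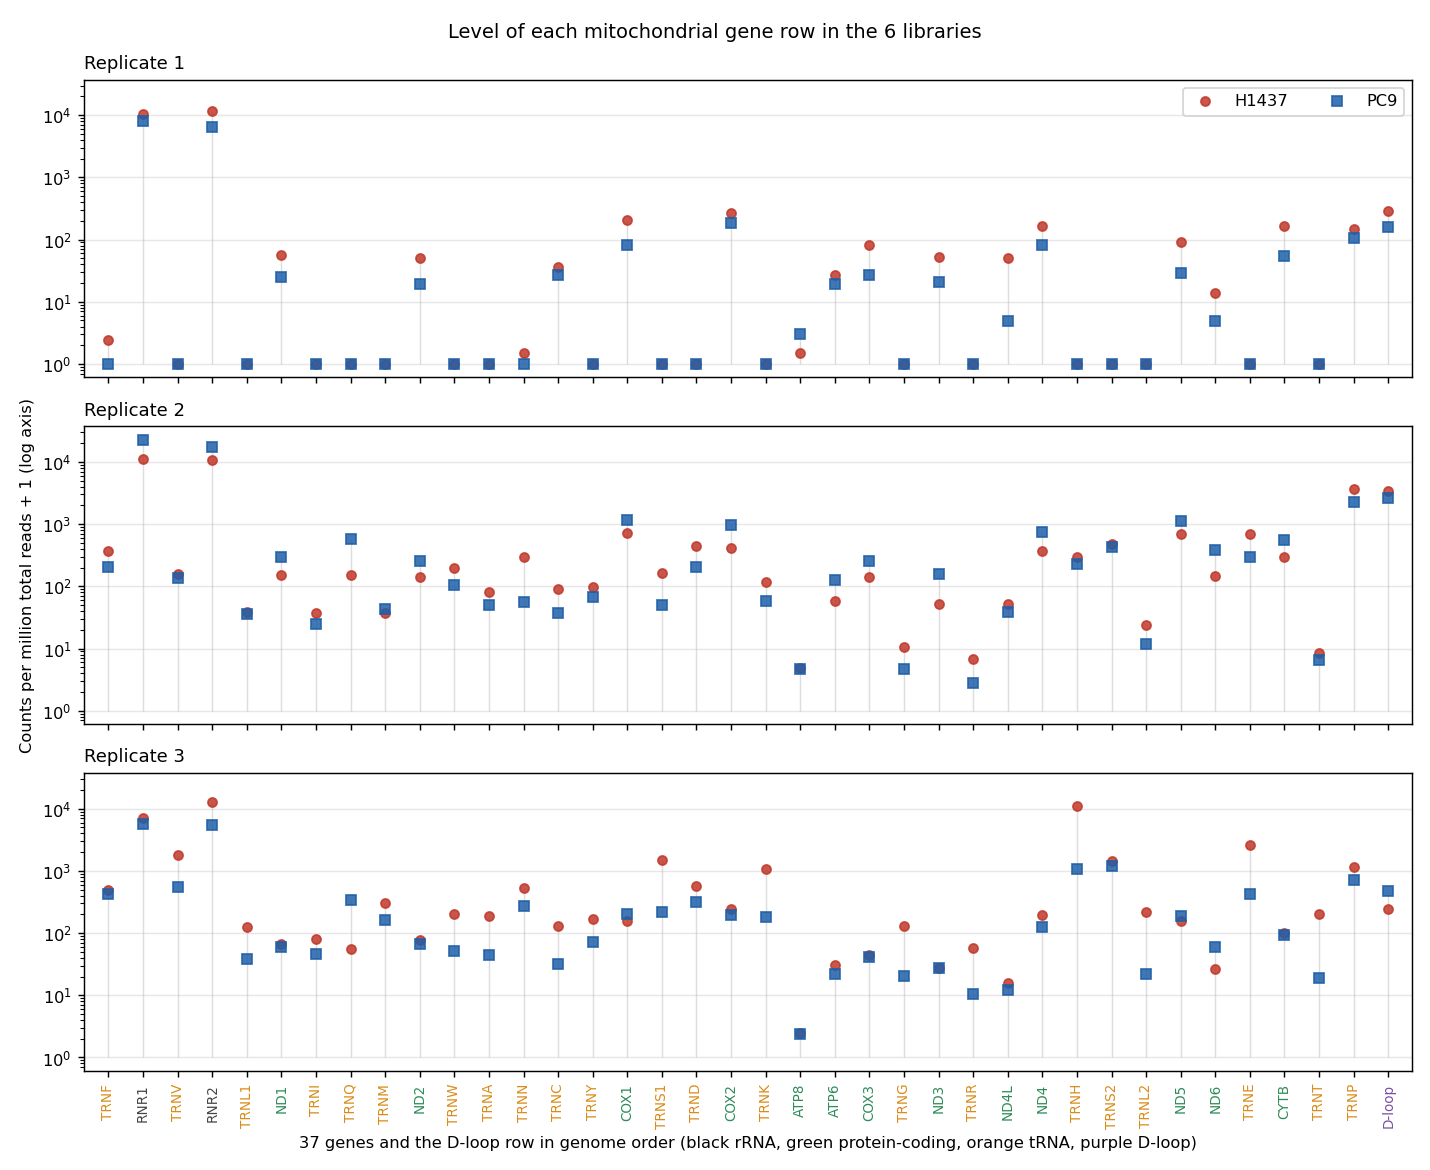
RPM plus 1 (log axis) of the 37 genes and the D-loop row in genome order, in 3 panels for replicates 1, 2, and 3. Red circles are H1437, blue squares are PC9, and points at 1 on the axis are rows with 0 counts. In replicate 1, 18 tRNA gene rows were at 0 in H1437 and 20 in PC9, whereas in replicates 2 and 3 none was.

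No single row separated the lines. The ranges of the 3 H1437 and the 3 PC9 libraries overlapped in 38 of 38 rows, both in RPM and as shares. The TMM-normalized quasi-likelihood test of edgeR, which measures each row relative to the other mitochondrial rows, had 0 of 34 rows (0%) with an adjusted P under 0.05 and 0 with an unadjusted P under 0.05, its lowest adjusted P being 0.967. With the library size set to the total reads, the edgeR counts were again 0 of 34 (0%) adjusted and 0 unadjusted, with a smallest adjusted P of 0.914. ATP8, TRNG, TRNR, and TRNT had too few counts to be tested. The median log2 fold change of H1437 over PC9 was 0.44 on the first scale and 0.57 on the second.

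Because same-numbered libraries resembled each other, the replicate number was also fitted as a block. The 3 rows that then passed were all tRNA genes, TRNS1 and TRNL2 higher in H1437 and TRNQ lower. They were 3 of 34 rows (8.82%) relative to the other rows, 2 higher (5.88%) and 1 lower (2.94%), and 10 rows had an unadjusted P under 0.05 in edgeR. Of the 19 tRNA genes tested, 18 had a fold change above 0 in this fit, with a median log2 fold change of 1.11 beside 0.43 over all 34 rows. Of the 12 protein-coding genes tested, 2 did, with a median of -0.12. On the RPM scale, 0 of 34 rows (0%) passed with the block, 6 had an unadjusted P under 0.05, and the lowest adjusted P from edgeR was 0.133, for TRNS1 and TRNE.

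These calls changed with the libraries and the tool. Without replicate 1 of each line, the blocked edgeR fit called 11 of 34 rows (32.4%) relative to the others, 9 higher in H1437 (26.5%) and 2 lower (5.88%), and 6 of 34 (17.6%) by RPM, all 6 higher. Without the D-loop row it called 8 of 33 (24.2%) relative to the others, 7 higher (21.2%) and 1 lower (3.03%), and 0 of 33 by RPM, with 6 under an unadjusted P of 0.05. Without replicate 2 and without replicate 3, the filter on low counts left 16 and 17 rows, and TRNS1, TRNL2, and TRNQ were not among them, so neither fit tests those genes. With replicate 4 added, the blocked edgeR fit called 0 of 34 rows on either scale, with 2 and 1 rows under an unadjusted P of 0.05, and TRNS1, TRNL2, and TRNQ each had an adjusted P of 0.971 relative to the others. With DESeq2 in place of edgeR, the blocked fit called 0 of 34 on either scale, with 2 and 1 rows under an unadjusted P of 0.05.

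**Figure D2:**
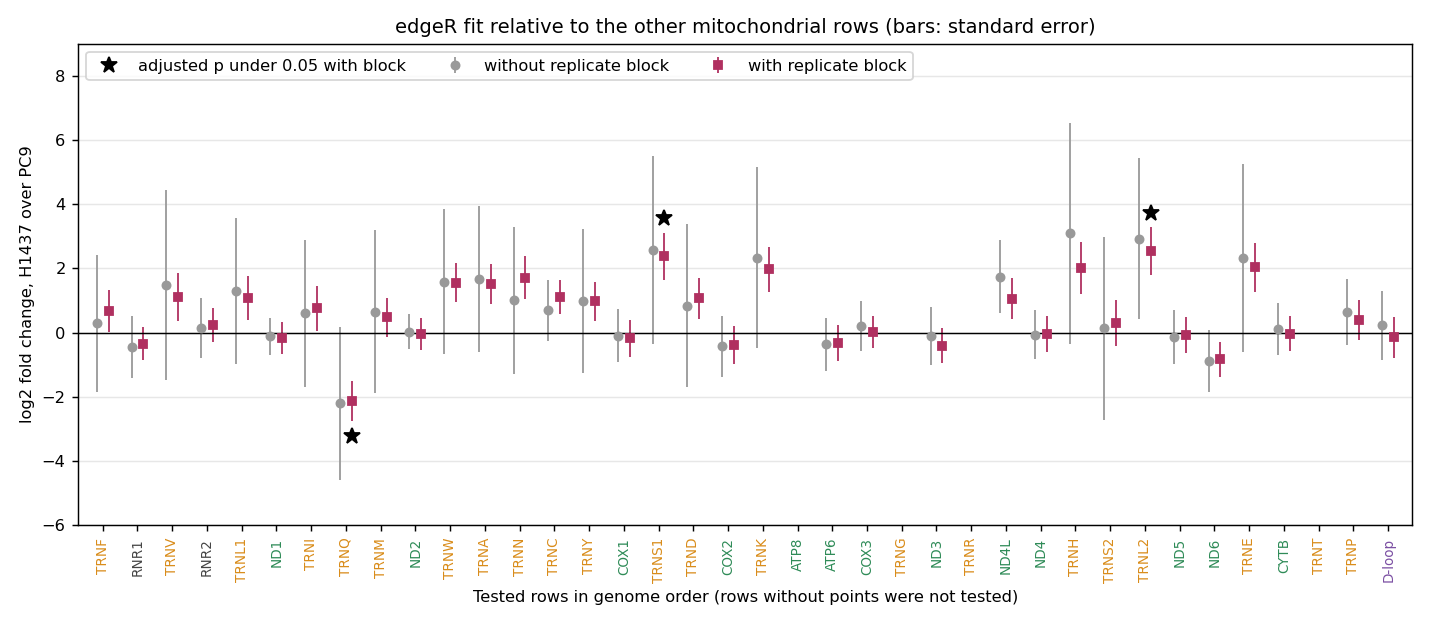
Log2 fold change of H1437 over PC9 from edgeR, relative to the other mitochondrial rows, for the 34 tested rows in genome order, without (gray circles) and with (red squares) the replicate block. Bars are standard errors and stars mark TRNQ, TRNS1, and TRNL2, the 3 rows with an adjusted P under 0.05 with the block.

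TRNS1 encodes a serine tRNA on the minus strand (ChrMT positions 7446 to 7514), next to COX1. Its level was 0, 163, and 1490 RPM in H1437 replicates 1, 2, and 3 and 0, 49.3, and 214 in PC9. H1437 was thus higher in replicates 2 and 3, and both lines were at 0 in replicate 1. The log2 fold change with the block was 2.38 (SE 0.74, adjusted P = 0.0231 from edgeR). Without the block it was 2.57 (SE 2.93, adjusted P = 0.967 from edgeR), and without H1437 replicate 3, with PC9 replicate 3 kept, it was -1.10. In replicate 4, TRNS1 was also higher in H1437, at 157 against 50.3 RPM.

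TRNL2 encodes a leucine tRNA on the plus strand (positions 12266 to 12336), just before ND5. It had few reads, 0, 12, and 147 counts in H1437 replicates 1, 2, and 3 and 0, 6, and 15 in PC9, or 0, 22.8, and 217 RPM against 0, 11.0, and 20.7. It passed the filter on low counts with 3 libraries, 2 of them H1437. In replicate 2 the ratio of 2.08 had an exact 95% interval from 0.722 to 6.75, and in replicate 3 the ratio was 10.5 (6.14 to 19.2). These intervals cover counting error only. The log2 fold change with the block was 2.54 (SE 0.75, adjusted P = 0.0198 from edgeR), and it rested on replicate 3. In replicate 4, H1437 had 0 counts, which allows up to 6.52 RPM, and PC9 had 9 counts, or 13.3 RPM.

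TRNQ encodes the glutamine tRNA on the minus strand (positions 4329 to 4400), and it went against the other tRNA genes. It was at 0, 152, and 54.6 RPM in H1437 and at 0, 572, and 337 in PC9. PC9 was thus higher in both replicates that had reads, with ratios of H1437 to PC9 of 0.265 (exact 95% interval 0.205 to 0.340) and 0.162 (0.111 to 0.229). The log2 fold change with the block was -2.14 (SE 0.63, adjusted P = 0.0198 from edgeR). In replicate 4 the direction turned, with 420 RPM in H1437 and 77.0 in PC9. TRNQ overlaps TRNI on the other strand (positions 4263 to 4331) by a few bases, and TRNI stood at 0, 36.0, and 78.2 RPM in H1437 and at 0, 23.7, and 45.6 in PC9, the opposite order from TRNQ.

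As a class, the 22 tRNA genes were higher in H1437 in each same-numbered pair. They summed to 182, 7410, and 24246 RPM in H1437 and to 132, 4886, and 6215 in PC9. The ratios of H1437 to PC9 were 1.38 (exact 95% interval 1.08 to 1.80), 1.52 (1.44 to 1.59), and 3.90 (3.77 to 4.03). The differences between replicates were much larger, and the ranges of the lines overlapped. Compared over libraries, the geometric mean of H1437 was 2.02-fold that of PC9 (two-sided exact permutation test, P = 0.5, n = 3 per line). Paired by number, the exact sign-flip permutation test gave P = 0.25, the smallest that 3 pairs allow, and unpaired the smallest possible P is 0.1. The log2 ratio of the class, 1.01, turned to -0.45 without H1437 replicate 3 and to -0.78 without PC9 replicate 1, in each case with the same-numbered library of the other line kept. Leaving out a whole pair does not turn it, since each pair ratio lay above 1. These values are for gene rows. On the tRNA rows, the lines were nearly level in replicate 2, with 8959 counts of 527131 total reads in H1437 and 9055 of 547501 in PC9. In replicates 1 and 3, H1437 was higher per total reads on the tRNA rows too.

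As a share of gene-row counts, the tRNA genes took 0.764% (95% Wilson interval 0.721 to 0.809), 22.5% (21.9 to 23.2), and 53.2% (52.6 to 53.7) in H1437. They took 0.876% (0.689 to 1.11), 9.62% (9.27 to 9.97), and 33.5% (32.7 to 34.3) in PC9. H1437 was thus lower in replicate 1, with overlapping intervals, and higher in replicates 2 and 3. The difference of the means was 10.8 percentage points (25.5% ± 26.3 against 14.7% ± 16.9, SD, n = 3 per line; exact permutation test, P = 0.7). Without H1437 replicate 3, with PC9 replicate 3 kept, it was -3.02 points.

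**Figure D3:**
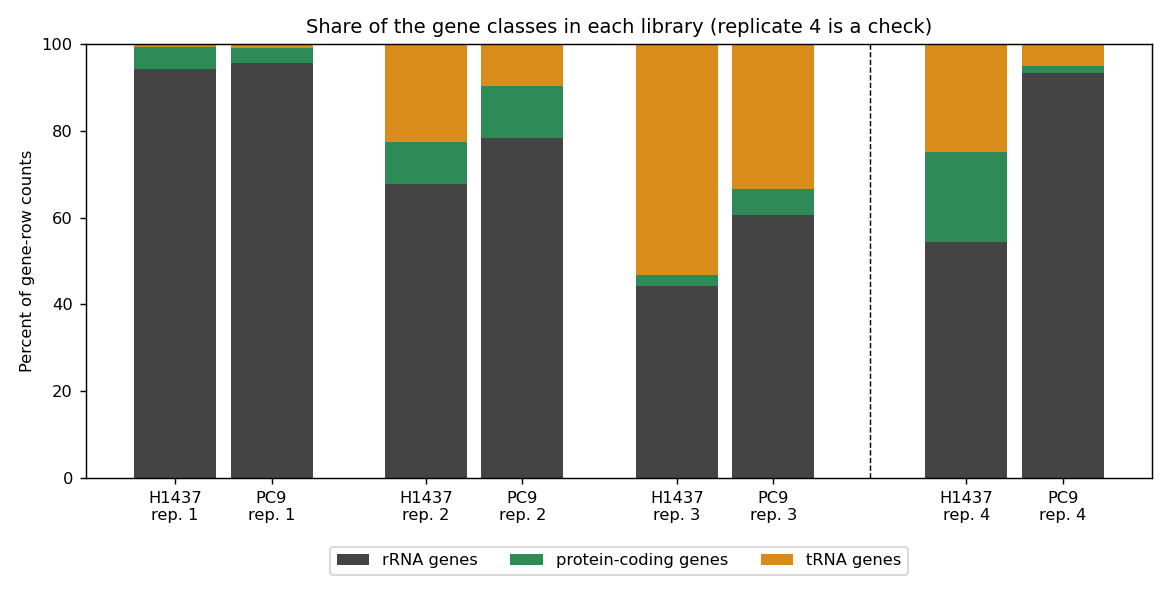
Percent of gene-row counts on rRNA (black), protein-coding (green), and tRNA (orange) genes as stacked bars that sum to 100, with H1437 and PC9 of one replicate number side by side and replicate 4 to the right of the dashed line. The tRNA share was under 1% in replicate 1 of both lines and 53.2% and 33.5% in replicate 3.

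In replicate 1 the tRNA gene rows were empty but for a few. TRNP had 912 counts in H1437 and 53 in PC9, TRNC had 224 and 13, and TRNF had 9 and TRNN 3 in H1437. The other 18 tRNA gene rows were at 0 in both lines. A count of 0 allows up to 0.477 RPM in H1437 replicate 1 and 5.99 in PC9 replicate 1, where the same genes reached from 5.69 to 11139 RPM in H1437 replicates 2 and 3. The tRNA rows of these 2 libraries were not empty and held 37078 and 1757 counts. The gene rows held 3.10%, 43.6%, and 59.6% of the counts on the tRNA rows in H1437 and 3.76%, 29.5%, and 56.7% in PC9, and the lines did not separate (exact permutation test, P = 0.8).

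In replicate 2, 20 of 22 tRNA genes were higher in H1437 by RPM, beside 23 of all 38 rows. The interval of the ratio lay above 1 for 10 tRNA genes and below 1 for 1, TRNQ, beside 11 above and 14 below over all 38 rows. In replicate 3, 21 of 22 were higher, beside 33 of 38 rows. The interval lay above 1 for 20 and below 1 for TRNQ, beside 23 above and 4 below over all 38 rows. The median ratio of the tRNA genes was 1.74 in replicate 2 and 3.71 in replicate 3, beside 1.25 and 1.68 over all 38 rows. The 5 rows that were higher in H1437 by RPM in 3 of 3 pairs were TRNF, TRNN, TRNC, TRNP, and ND4L. In replicate 1, TRNF and TRNN had 9 and 3 counts in H1437 against 0 in PC9. A 0 there allows up to 5.99 RPM, so replicate 1 gives no usable order for either gene. By share of the gene-row counts, 0 of 38 rows were higher in H1437 in 3 of 3 pairs.

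Of these 5 rows, TRNP, the proline tRNA on the minus strand at the edge of the D-loop (positions 15956 to 16023), had the most reads. It was at 145, 3625, and 1170 RPM in H1437 and at 106, 2281, and 707 in PC9, with ratios from 1.37 to 1.66. TRNN, the asparagine tRNA, was at 0.477, 294, and 521 RPM in H1437 and 0, 54.8, and 274 in PC9. TRNC, the cysteine tRNA, was at 35.6, 91.1, and 131 against 25.9, 36.5, and 30.4, and TRNF, the phenylalanine tRNA ahead of RNR1, was at 1.43, 366, and 491 against 0, 201, and 420. In each of these genes the PC9 range reached into the H1437 range, and none passed either edgeR fit, with or without the block.

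A few tRNA genes carried much of the class in H1437 replicate 3. TRNH, the histidine tRNA (positions 12138 to 12206), was chosen for description after its values were seen. It stood at 11139 RPM in H1437 replicate 3, or 24.4% of the gene-row counts, where it ranked second behind RNR2, and at 0 and 300 RPM in replicates 1 and 2. In PC9 it stood at 0, 225, and 1077 RPM. The ratio was 1.33 (exact 95% interval 1.05 to 1.70) in replicate 2 and 10.3 (9.60 to 11.1) in replicate 3, and in replicate 4 it was 0.134 (0.0735 to 0.228), the opposite direction. Its neighbor TRNS2, a serine tRNA directly after it, differed far less, at 0, 478, and 1443 RPM in H1437 and 0, 435, and 1205 in PC9. With TRNH and TRNE left out, the tRNA class ratio in replicate 3 was 2.22 in place of 3.90.

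**Figure D4:**
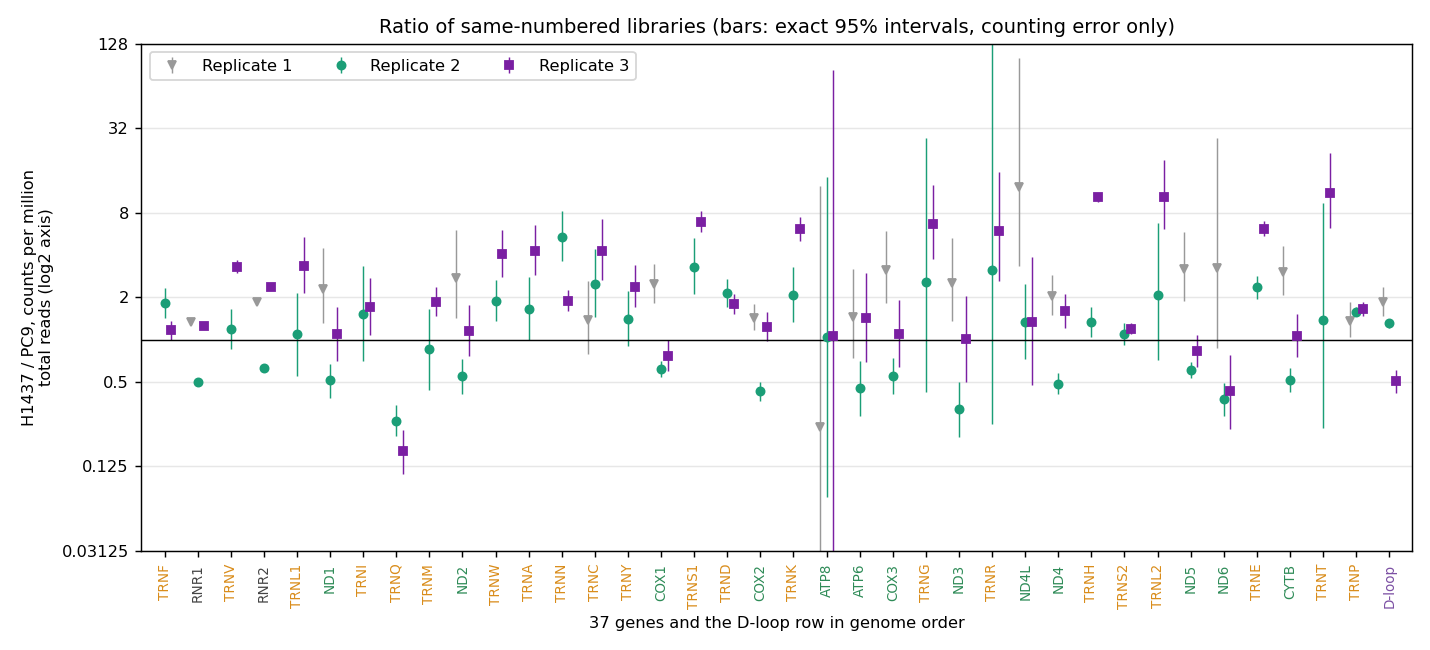
Ratio of H1437 to PC9 in RPM (log2 axis) for each row in genome order, with gray triangles for replicate 1, green circles for replicate 2, and purple squares for replicate 3. Bars are exact 95% intervals that cover counting error only, some run past the axis, and a row with 0 counts in either library has no point. Purple squares of tRNA genes lie above 1 except TRNQ, and the green circles of most protein-coding genes lie below 1.

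The rRNA genes RNR1 and RNR2, which encode the small and large ribosomal RNAs, were the most abundant class in each library but H1437 replicate 3, where the tRNA genes held more. RNR1 (positions 648 to 1601) was at 10634, 11316, and 7194 RPM in H1437 and at 7983, 22530, and 5749 in PC9. RNR2 (positions 1671 to 3229) was at 11854, 10937, and 13025 in H1437 and at 6379, 17311, and 5493 in PC9. H1437 was higher in replicates 1 and 3 and lower in replicate 2 for both genes, and its 3 libraries lay inside the PC9 range for both. The class summed to 21653 ± 1247 RPM in H1437 and 21815 ± 15689 in PC9 (SD, n = 3 per line), and the geometric means differed 1.16-fold (exact permutation test, P = 0.7). In the edgeR fit relative to other rows, the log2 fold changes were -0.45 for RNR1 (SE 0.96) and 0.14 for RNR2 (SE 0.93), each with an adjusted P of 0.967.

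Within the rRNAs, which of both had more counts depended on the row type. On the gene rows, RNR1 counts exceeded RNR2 counts in 3 of 3 PC9 libraries and in 1 of 3 H1437 libraries, replicate 2. On the rRNA rows, RNR2 exceeded RNR1 in 6 of 6 libraries. The gene row of RNR2 left out between 14.8% and 31.7% of the rRNA-row counts, whereas that of RNR1 left out at most 1.73%. On the rRNA rows RNR1 made up 39.2%, 44.4%, and 32.2% of the counts of both genes in H1437 replicates 1, 2, and 3 and 46.4%, 49.8%, and 44.4% in PC9, lower in H1437 in 3 of 3 pairs, with ranges that met at 44.4%. By share of the gene-row counts, RNR1 was lower in H1437 in 3 of 3 pairs, at 44.5%, 34.4%, and 15.8% against 53.1%, 44.3%, and 31.0%. COX2 and ATP6 were also lower in H1437 in 3 of 3 pairs by share of the gene-row counts. The ranges overlapped for all 3. In replicate 4, RNR1 exceeded RNR2 on the gene rows in both lines, and on the rRNA rows in H1437 (5315 against 4307 counts) but not in PC9 (18657 against 23106).

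The 13 protein-coding genes mostly went in the same direction within replicate 1 and within replicate 2, and the direction differed between these pairs. In replicate 1, 12 of 13 were higher in H1437 by RPM, beside 17 of the 18 rows with a ratio. Their median ratio was 2.53, beside 2.19 over those 18 rows, 13 of which were the coding genes. In replicate 2 only 2 of 13 were higher, with a median of 0.518, beside 23 of all 38 rows and 1.25. In replicate 3, 10 of 13 were, with a median of 1.09, beside 33 of all 38 rows and 1.68. In replicates 1 and 3 the coding genes were thus no more often higher than all rows together. By share of the gene-row counts, the coding genes took 5.07%, 9.80%, and 2.49% in H1437 and 3.61%, 12.0%, and 5.85% in PC9. In replicate 3, 0 of 13 were higher in H1437 by share, beside 13 of all 38 rows. The coding genes summed to 1210, 3223, and 1133 RPM in H1437 and to 543, 6088, and 1084 in PC9. The geometric means differed 1.07-fold (exact permutation test, P = 0.8, n = 3 per line). The coding genes of complexes I, III, IV, and V each followed this order, with H1437 to PC9 ratios from 1.32 to 3.03 in replicate 1, from 0.468 to 0.536 in replicate 2, and from 1.01 to 1.40 in replicate 3.

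COX1, the catalytic subunit of cytochrome c oxidase, was at 204, 723, and 158 RPM in H1437 and at 81.8, 1163, and 205 in PC9. COX3, another core subunit of that enzyme, was at 81.3, 138, and 44.3 against 25.9, 250, and 40.1. CYTB, the cytochrome b of complex III, was at 163, 292, and 98.9 against 53.9, 564, and 92.7. All 3 had their highest level in replicate 2 in both lines and their highest ratio in replicate 1.

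ND5, a large membrane subunit of complex I, was at 89.1, 685, and 156 RPM in H1437 and at 27.9, 1120, and 188 in PC9. ND6, the one coding gene on the minus strand, was at 13.0, 144, and 25.1 against 3.99, 382, and 58.1, lower in H1437 in replicates 2 and 3. Its log2 fold change with the block was -0.84 (SE 0.54, adjusted P = 0.291 from edgeR), the lowest of the coding genes. ND4L, a small complex I subunit that overlaps the start of ND4, was the coding gene that was higher in H1437 in 3 of 3 pairs, at 49.1, 51.2, and 14.8 against 3.99, 38.4, and 11.1 RPM. In replicate 1 its ratio of 12.3 rested on 2 counts in PC9 and had an exact 95% interval from 3.38 to 102. The log2 fold change was 1.74 (SE 1.14, adjusted P = 0.967 from edgeR) and with the block 1.06 (SE 0.63, adjusted P = 0.275 from edgeR).

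ATP8, which overlaps ATP6, had between 1 and 3 counts in each of the 6 libraries and gives no usable ratio. The other coding genes, ND1, ND2, ND3, ND4, COX2, and ATP6, had adjusted P values of 0.967 in the unblocked edgeR fit, and their log2 fold changes ran from -0.42 to 0.02. Per kilobase of gene, the mean coding levels ranged from 9.25 RPM for ATP8 to 449 for COX2 in H1437 and from 11.3 to 656.5 for the same genes in PC9, so both lines had the same genes at the ends of the coding order.

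The D-loop row (from position 16024, of which 546 bases lie within the sequence) was at 289, 3455, and 242 RPM in H1437 and at 156, 2645, and 480 in PC9. H1437 was higher in replicates 1 and 2 and lower in replicate 3. The geometric means differed 1.07-fold (exact permutation test, P = 1, n = 3 per line). TRNP directly beside it had its highest level in replicate 2 in both lines too, but was higher in H1437 in replicate 3. The log2 fold change of the D-loop row was 0.23 without and -0.15 with the block (adjusted P = 0.967 and 0.955 from edgeR).

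By strand, the 9 minus-strand genes held shares of 0.812%, 16.2%, and 14.0% in H1437 and 0.902%, 7.45%, and 11.7% in PC9. H1437 was higher in replicates 2 and 3 and the difference of the means was 3.68 percentage points (exact permutation test, P = 0.6, n = 3 per line). Nearly all of this share came from the 8 minus-strand tRNA genes, which summed to 181, 5190, and 6375 RPM in H1437 and 132, 3403, and 2106 in PC9. The 14 plus-strand tRNA genes summed to 1.43, 2220, and 17870 against 0, 1483, and 4109. On the gene rows, the tRNA counts of replicate 1 were thus almost all on minus-strand genes. Those of replicate 3 were mostly on plus-strand genes in both lines. On the tRNA rows, replicate 1 went the other way. Plus-strand and minus-strand tRNA genes held 34998 and 2080 counts there in H1437 and 1677 and 80 in PC9. In replicate 3 the tRNA rows held 14070 and 13484 counts in H1437 and 4841 and 3089 in PC9.

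Along the genome, the summed tRNA genes were higher in H1437 in replicates 2 and 3 in each of the 6 stretches except that from ND1 to ND2. Those of TRNF to TRNL1 stood at 563 RPM in H1437 against 369 in PC9 in replicate 2 and at 2451 against 1010 in replicate 3. Those of TRNS1 to COX3 stood at 727 against 312 and at 3146 against 708 RPM. In replicate 2 the tRNA genes of TRNI to TRNM, between ND1 and ND2, were lower in H1437 (224 against 637 RPM), whereas those of TRNW to TRNY, between ND2 and COX1, were higher (759 against 312). In replicate 3 the same blocks stood at 432 against 543 and at 1207 against 467 RPM. In PC9, TRNQ held most of the counts of the first block in replicates 2 and 3. The tRNA genes from TRNG to TRNL2 stood at 816 against 676 RPM in replicate 2 and at 12985 against 2332 in replicate 3, where TRNH held most of the counts in H1437. The tRNA genes of the stretch from ND5 to TRNP, which are TRNE, TRNT, and TRNP, were at 145, 4322, and 4025 RPM in H1437 and 106, 2579, and 1155 in PC9.

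The reads left out of the gene rows were concentrated at a few junctions of neighboring genes. In RPM, the largest difference between same-numbered libraries lay at TRNE and CYTB, which lie next to each other on opposite strands (TRNE at positions 14674 to 14742, CYTB at 14747 to 15887). On TRNE, the glutamate tRNA, 4.61, 2478, and 13333 RPM were left out in H1437 replicates 1, 2, and 3 and 5.99, 723, and 1987 in PC9. On CYTB, 23.5, 2438, and 13280 RPM were left out in H1437 and 9.98, 734, and 1939 in PC9. The left-out counts of both genes were close to each other in replicates 2 and 3 of both lines, 9037 and 9001 in H1437 replicate 3, for example. H1437 was higher in replicates 2 and 3, as it was on the TRNE gene row itself, which stood at 0, 689, and 2656 RPM against 0, 292, and 430. The ranges overlapped, because replicate 1 of both lines was near 0 (exact permutation test, P = 0.5 for the reads left out on TRNE and 0.4 for those on CYTB, n = 3 per line).

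This junction decided how CYTB compared between the lines. On the gene row, CYTB had 67 counts in each line in replicate 3, a ratio of 1.07 RPM, whereas its CDS row had 9068 counts in H1437 and 1469 in PC9, or 13379 against 2032 RPM. With the CDS, rRNA, and tRNA rows in place of gene rows, the blocked edgeR fit relative to the other rows called 2 of 37 rows (5.41%), TRNE and CYTB, both higher in H1437, and none of TRNS1, TRNL2, and TRNQ. By RPM the same blocked fit called 0 of 37 (lowest adjusted P = 0.361 from edgeR, 4 with an unadjusted P under 0.05). Without the block, edgeR called 0 of 37 on either scale, with 1 and 0 rows under an unadjusted P of 0.05. The blocked fit of these rows was chosen after seeing the data. In replicate 4 H1437 was again higher at this junction, with 741 against 136 RPM left out on TRNE. As a difference in RPM this was smaller than in replicates 2 and 3. The TRNE gene row itself went the other way in replicate 4, at 185 against 258 RPM.

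At the end of the rRNA region, the reads left out of RNR2 and TRNL1, its neighbor, did not differ beyond the spread. On TRNL1, a leucine tRNA, 4659, 4788, and 2133 RPM were left out in H1437, and PC9 had 2923, 7604, and 1940 (P = 0.9 in the exact permutation test of 3 against 3). These were at least 94.4% of the reads on the TRNL1 tRNA row in each of the 6 libraries. At COX3 and TRNG, another junction of this kind, 348, 203, and 121 RPM were left out on TRNG in H1437 and 166, 572, and 141 in PC9. TRNA, TRNN, and TRNC had 0 reads left out in each of the 6 libraries. For the coding genes ND3, ND4L, and ND4, between TRNG and TRNL2, the gene rows held 78.7%, 85.9%, and 70.1% of the CDS-row counts in H1437 and 94.5%, 90.2%, and 87.9% in PC9. These ranges did not overlap (exact permutation test, P = 0.1, the smallest possible). This stretch was singled out of 6 after its values were seen. The same test was also run on whole stretches, on their tRNA genes, and on classes, complexes, and strands, with no adjustment for their number.

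**Figure D5:**
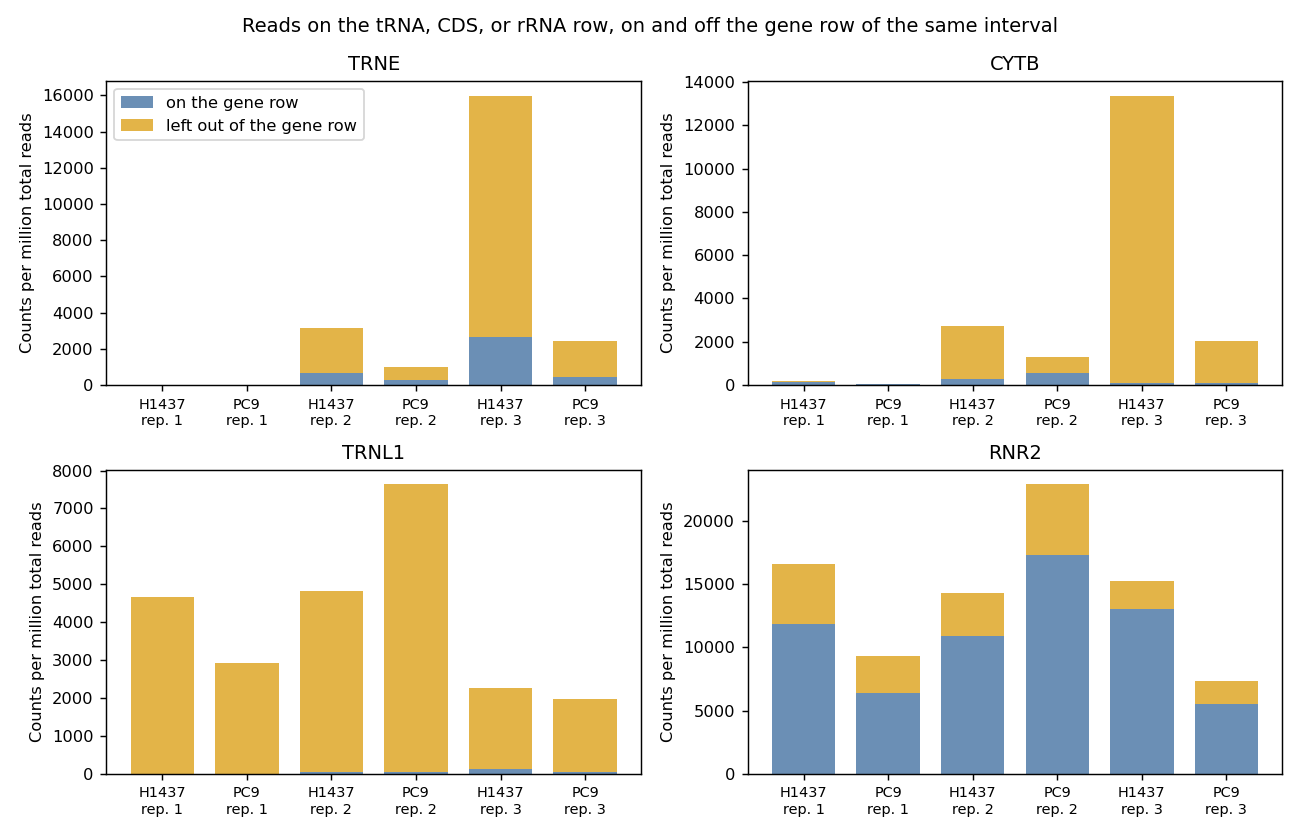
RPM on the tRNA row of TRNE and TRNL1, the CDS row of CYTB, and the rRNA row of RNR2 in the 6 libraries, divided into reads on the gene row of the same interval (blue) and reads left out of it (yellow). In H1437 replicate 3, 13333 RPM were left out on TRNE and 13280 on CYTB, and on TRNL1 nearly all reads were left out in both lines.

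Replicate 4, which is not part of the tests above, did not repeat the order of replicates 2 and 3 for some tRNA genes, TRNQ, TRNL2, and TRNH among them. By share of the gene-row counts, 0 of 38 rows had been higher in H1437 in 3 of 3 pairs. The 5 rows that had been by RPM were higher in H1437 again in replicate 4. Their ratios were 4.13 for TRNF, 2.29 for TRNN, 1.63 for TRNC, 50.3 for TRNP, and 4.89 for ND4L. Of all 35 rows with a ratio in replicate 4, 23 were higher in H1437. The rRNA genes stood at 18510 RPM in H1437 and 52731 in PC9, a ratio of 0.351 (exact 95% interval 0.343 to 0.359), the same direction as replicate 2. The protein-coding genes stood at 6972 against 986 RPM, and 12 of the 12 with a ratio were higher in H1437, as in replicate 1. The tRNA class was again higher in H1437, at 8496 against 2837 RPM, but only 10 of the 20 tRNA genes with a ratio were, and TRNP held 6474 RPM of the H1437 sum. TRNV, the valine tRNA between the rRNAs, went the other way, at 36.96 against 782 RPM. The D-loop row showed the largest ratio, 61.9 (exact 95% interval 49.5 to 78.4), at 7239 against 117 RPM, followed by TRNP at 50.3. With replicate 4 added to the unblocked tests, 0 rows passed on either scale in edgeR.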

How the data were processed

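J2-captured RNA was polyadenylated in vitro, and PCR-cDNA libraries were sequenced on a nanopore. The authors mapped reads to the human mitochondrial genome alone with minimap2 2.17-r941 and deposited raw featureCounts counts for 99 annotated rows (minimum overlap 6 bases, no multi-mapping reads), without normalization. They also deposited total and mapped counts per library from SAMtools 1.10 and a percent of mapped reads, which was recomputed here. The methods describe reads overlapping several features in differing ways.

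Levels, shares, and exact permutation tests (of mean log2 levels in RPM or of shares, two-sided) were computed in Python 3.11.15 with scipy 1.17.1. Rows with at least 10 counts in at least 3 of the 6 libraries were tested with edgeR 4.0.16 (quasi-likelihood, Benjamini-Hochberg) in R 4.3.3, first with TMM and the D-loop row included and then with total reads as library size. DESeq2 1.42.0 served as an alternative. The edgeR fit with TMM, with and without the block, was also run on simulated data, whose outcome is not given here. PCR reads carry no molecular identifiers, so the 95% Wilson and exact intervals cover counting error only, and limits for 0 counts use 3 counts. No pair of replicates of a line agreed within sampling noise in a chi-square test. The labels do not say what a replicate number shares. Deviations from the line means of same-numbered libraries correlated at 0.91, 0.50, and 0.94 over 34 rows, so the numbers were taken to pair the libraries. H1437 replicate 2 also correlated with PC9 replicate 3 (0.79).

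The members and lists were chosen with earlier results of these data known. Rows named with values are RNR1, RNR2, and the D-loop, 5 coding genes (COX1, COX3, CYTB, ND5, and ND6), those past the threshold in either fit with or without the block, and, in each fit, up to 5 with the largest change among those on one side in all 3 pairs. Others were named after their values were seen. The other lines, treatments, and exon rows were not used here.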

Additional observations from a re-analysis of the deposited data

How the results depend on the processing

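Relative to the other mitochondrial genes, edgeR called 0 of 34 genes without the block, 0 also at an unadjusted p under 0.05, and 0 to 0 with each library left out in turn. With the replicate block, which takes same-numbered libraries as pairs, it called 3 (TRNL2, TRNS1 and TRNQ). Combinations of the block with other settings were chosen after seeing the data. The block called 11 genes without replicate 1 of each line, 2 of 37 with the CDS, rRNA and tRNA entries (0 of 37 per 1000000 total reads), 8 of 33 without the D-loop, and 0 with replicate 4 added or with DESeq2. Without replicate 2 or 3 it called 0 of the 16 or 17 genes left by the filter, which did not include TRNL2, TRNS1 or TRNQ. Per 1000000 total reads the block called 0 genes, and 6 without replicate 1 of each line, against 0 to 0 for single libraries left out without the block. The cause was not tested. Scaling by the gene-row sum without TMM moved the median log2 fold change over all genes from 0.44 to 0.015.

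The log2 fold change of RNR1 turned to 0.075 with the CDS, rRNA and tRNA entries and ran from -1.23 to 0.40 with single libraries left out. That of RNR2 turned to -0.022 without a filter, -0.54 with replicate 4, -0.011 without the D-loop and -0.55 with the replicate block and replicate 4, with a range of -0.48 to 0.92. That of the D-loop turned to -0.15 with the block, -0.31 and -0.69 with the block and without replicate 1 or 2, and -0.076 with the block in DESeq2, with a range of -0.77 to 0.77. That of TRNS1 ran from -1.10, without H1437 replicate 3, to 5.60.

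Per 1000000 mapped reads the log2 ratios turned to -0.25 for the rRNA genes, -0.36 for the protein-coding genes and -0.37 for the D-loop. With arithmetic means they turned to -0.011 for the rRNA and -0.47 for the protein-coding genes, and with replicate 4 to -0.21 for the rRNA genes. With single libraries left out, and the same-numbered library of the other line kept, they ran from -0.15 to 0.77 for rRNA, -0.65 to 1.10 for protein-coding genes, -0.78 to 3.08 for tRNA and -1.14 to 1.19 for the D-loop. The difference in the tRNA share ran from -3.02 percentage points, without H1437 replicate 3, to 23.2, and in the minus-strand share from 0.75 to 8.45. The gene-row percent of the tRNA, CDS and rRNA entries differed by -7.66 to 21.6, -23.4 to 0.94 and -0.63 to 3.07 points. With 3 pairs the sign-flip test cannot give a P under 0.25, and the permutation test of 3 against 3 none under 0.1. Neither could make or change a call at 0.05 among these. The 3 libraries of each line, and rows of a few counts, limit the precision.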
